A study of Homo sapiens with 2 samples.

Results

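Cell junction and cadherin genes are described here in PC3 cells, a human prostate cancer line that grows without androgen. The members are the probe sets whose platform gene symbol names a claudin, another tight junction protein, a polarity protein, a cadherin or protocadherin, a catenin, a nectin, a desmosomal protein, a connexin or EPCAM. They came to 83 probe sets for 82 genes, out of 13864 named genes and 23641 probe sets in all. Of the 82, 0 were alpha-catenins, delta-catenins or connexins, and 2 matched by their letters alone. One line stably overexpressed miR-95 and the other stably overexpressed a control miR, and both were kept in serum-containing medium. Each group has 1 Affymetrix array. No replicate error and no test can therefore be given, and the statements below describe these 2 arrays. Whether each line was a clone or a pool is not stated in the labels.

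Epithelial cells are held together by several kinds of junction. Tight junctions seal the space between cells through claudins and occludin, which are tied to actin by the ZO scaffolds. Adherens junctions join cells through cadherins, with catenins beneath them, and through nectins. Desmosomes anchor intermediate filaments through desmogleins and desmocollins, linked to keratin by plakoglobin, plakophilins and plakins, while gap junctions pass small molecules through connexins. As background, PC3 cells have been reported to lack the alpha-catenin gene CTNNA1. A microRNA lowers messenger RNAs that hold a site complementary to its seed, so the sequence of miR-95 is shown here to make the introduced agent plain.

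The miR-95 gene yields 2 mature strands, which RefSeq places on chromosome 4 of GRCh38.p14, minus strand, at chr4:8005312-8005333 for the 3p strand and chr4:8005347-8005367 for the 5p strand. The capitals mark the seed, bases 2 to 8.
hsa-miR-95-3p: uUCAACGGguauuuauugagca
hsa-miR-95-5p: uCAAUAAAugucuguugaauu
The seed of the 3p strand pairs with CCGUUGA in a target, and that of the 5p strand with UUUAUUG. Of the 2370 mature names in the table, 0 others shared either seed. Which strand the line expressed is not stated, the miR-95 gene itself was not among the named probe sets, and target sites in the members were not searched.

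The arrays were close to each other over all probe sets (Pearson's r = 0.9959, a description over 23641 probe sets that share the same 2 arrays). Differences are log2 values, miR-95 minus control, after each array was centred on its median over genes, which was 7.495 on the miR-95 array, against 7.46 on the control array. Single-array levels are given as deposited, before centring. A gene was called detected when its value was at or above the array median on at least 1 array, which kept 7081 genes and 31 of the 82 members. CLDN5 and CLDN23 passed on the miR-95 array alone, and the other 29 passed on both. As a guide to measurement disagreement, the differences given by different probe sets of one gene had a root mean square SD of 0.132 over 68 detected genes. It holds no variation between cultures. Among fixed markers, all 6 of the PC3 carcinoma list were detected, with KRT8 at 7.81 under miR-95 and 7.91 in the control and KRT18 at 8.02 under miR-95 and 7.86 in the control. CD44, a surface glycoprotein of the same list, read 8.24 under miR-95 and 8.53 in the control (difference -0.325). Of the mesenchymal list, VIM and FN1 were also detected, while CDH2 and SPARC had no probe set used here. VIM read 9.55 under miR-95 and 9.53 in the control, and FN1 read 10.42 under miR-95 and 10.29 in the control. Of the androgen-responsive prostate luminal list, KLK3, KLK2 and FOLH1 were below the detection limit on both arrays, while HOXB13, a prostate homeobox factor, read 11.94 under miR-95 and 11.64 in the control (difference 0.265). Markers of leukocytes, fibroblasts and neuroendocrine cells that had a probe set were also below it. The fibroblast marker LUM, a matrix proteoglycan, read 6.04 on the miR-95 array against 7.33 on the control array. Its difference of -1.325 was the lowest of all 13864 named genes, though both values were below the limit. DCN, a relative of LUM, read 2.76 and 2.90 in the same order. Of the endothelial markers VWF was below the limit and KDR above it (8.28 on the miR-95 array, 7.96 on the control array). The part of these genes in the results below was not tested.

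The detected members differed between the arrays about as detected genes in general did. Outside the desmosomal class they held 1 protocadherin and 0 other cadherins, and 0 alpha-catenins, delta-catenins or connexins. Of the 31 detected members, 1 was lower by 1.5-fold or more with miR-95 and 0 were higher by as much, where 0.861% of the 7081 detected genes were that much lower and 0.395% that much higher. At a smaller limit, a log2 difference of 0.322, 2 members were lower and 0 higher, against 5.38% and 3.08% of detected genes. These 2 of 31 members are near the background of 8.46% of detected genes past 0.322 either way. The median difference of the detected members was -0.045, beside -0.035 for all detected genes. Of the detected members, 16 were negative and 15 positive, a negative share of 51.6% beside 59.4% of all detected genes. Over all 82 measured members the median was -0.005, from -0.595 for CLDN1 to 0.335 for CLDN9. The detected members past 0.322 were CLDN1 and OCLN, both tight junction strand proteins.

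**Figure D1:**
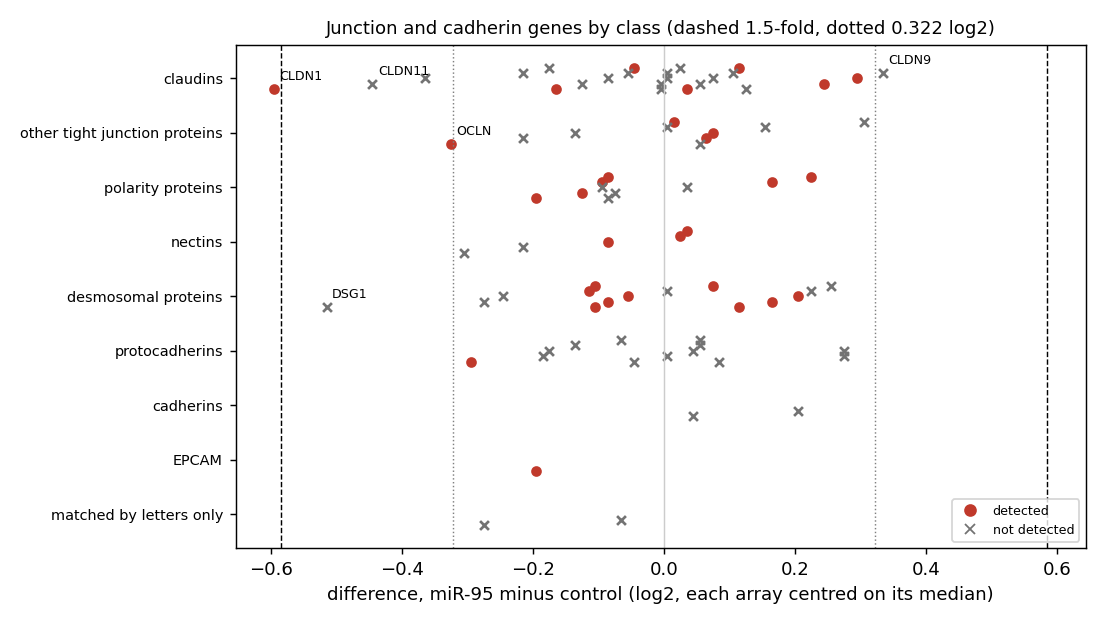
Difference of each of the 82 members (miR-95 minus control, log2 after centring) on the horizontal axis, 1 point per gene, by class. Filled points are detected genes and crosses are genes below the detection limit on both arrays. CLDN1 lies at the 1.5-fold line and OCLN at the 0.322 line, and the other detected members lie between -0.295 and 0.295.

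Claudins are the four-pass membrane proteins that form the strands of tight junctions and set which ions cross them. Of the 24 measured, 7 were detected, and CLDN1 differed most. CLDN1, a barrier-forming claudin, read 8.16 on the miR-95 array against 8.72 on the control array. The difference after centring was -0.595, which is 1.51-fold lower and ranks 53rd from the lowest of the 7081 detected genes. That places it just past the 1.5-fold limit of 0.585. It stood at 1.47-fold in the values as deposited and at 1.49-fold after both loess and quantile normalization, so its call at 1.5-fold depends on the centring. Its sign stayed negative, but every processing reuses the same 2 arrays, so this adds no support for the direction. The difference is larger than the 0.132 disagreement among probe sets, but CLDN1 had 1 probe set and each group 1 array.

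The other detected claudins lay on both sides of 0, from -0.165 to 0.295. CLDN3, a receptor for Clostridium perfringens enterotoxin and a common epithelial claudin, read 11.44 on the miR-95 array against 11.16 on the control array, a difference of 0.245. CLDN4, which also binds that toxin, read 8.17 on the miR-95 array, against 8.30 on the control array, a difference of -0.165. CLDN3 and CLDN4 thus lay on opposite sides of 0, each within about 2 of the 0.132 spreads. CLDN7, which can complex with EPCAM, read 8.89 against 8.82 on the control array (difference 0.035). CLDN15, a pore-forming claudin of the intestine, read 8.30 against 8.31 (difference -0.045). CLDN5, the main claudin of endothelium, read 7.60 on the miR-95 array, against 7.45 on the control array, just below that array's median, with a difference of 0.115. CLDN23 read 7.57 on the miR-95 array, against 7.24 on the control array, a difference of 0.295 that became 0.33, past the 0.322 limit, without centring. The detected claudins held 4 positive and 3 negative differences with a median of 0.035, but CLDN5 and CLDN23 passed only through the array where they are higher. With detection on the mean of both arrays the signs were 3 and 3 and the median was -0.005.

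The remaining 17 claudins were below the array median on both arrays, where values scatter more. The robust SD of the differences was 0.193 over the genes below the limit and 0.148 over the detected genes. Of genes below the limit 12.1% were past 0.322 either way and 1.44% past 1.5-fold. Among the dim claudins CLDN11, the claudin of myelin and of Sertoli cells, read 6.19 on the miR-95 array against 6.60 on the control array (difference -0.445). CLDN24 read 4.73 against 5.06 (difference -0.365). CLDN9, a claudin of the inner ear, read 7.28 on the miR-95 array against 6.91 on the control array (difference 0.335). These are the dim claudins past 0.322, and none of them reached 1.5-fold. Next came CLDN6, a claudin of embryonic epithelia, at -0.215, CLDN8, a claudin of the kidney collecting duct, at -0.175, and CLDN18, a gastric and lung claudin, at 0.125. CLDN14, also of the inner ear, was at -0.125. CLDN22 was at 0.105, CLDN12 at -0.085, CLDN17 at 0.075, CLDN19 at -0.055 and CLDN25 at 0.055. CLDN2, the cation pore of leaky epithelia, was at 0.025, and CLDN10, CLDN16, CLDN20 and CLDN34 lay within 0.005 of 0. Over all 24 claudins 12 differences were negative and 12 positive, a negative share of 50% beside 56.9% of all named genes. Without centring CLDN10 and CLDN16 turned to 0.03, so the split depends on the centring.

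**Figure D2:**
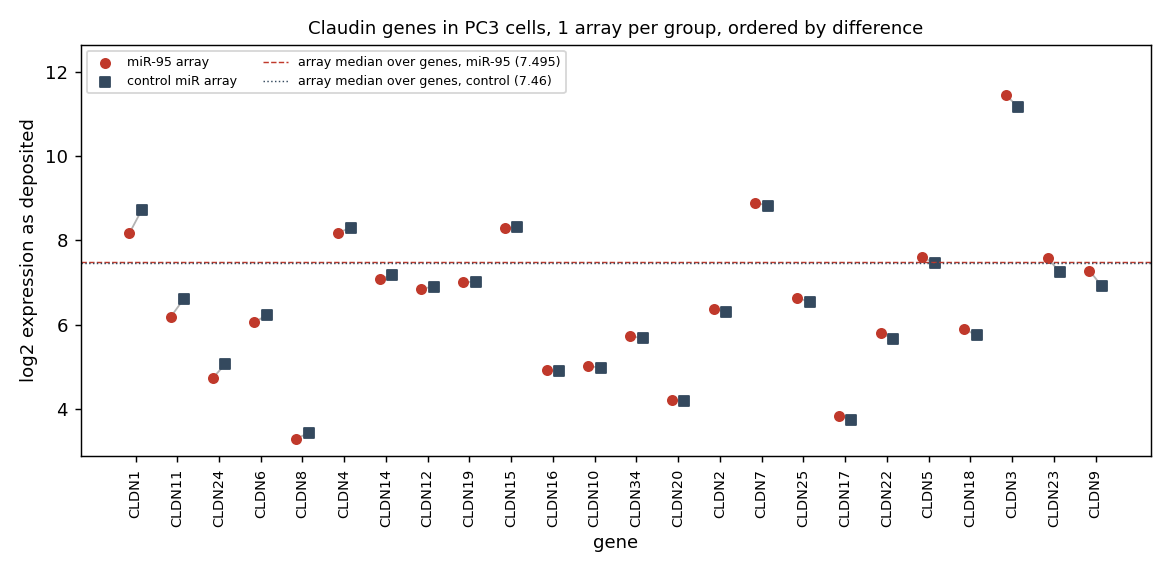
Log2 expression as deposited for the 24 claudins on the vertical axis, with the miR-95 array (circle) left of the control array (square) for each gene, 1 array per group. Genes are ordered by their difference, from CLDN1 at -0.595 to CLDN9 at 0.335, and 7 of them reach an array median. Levels of different genes come from different probes and are not compared.

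Outside the claudins, OCLN had the lowest difference of the tight junction proteins. OCLN encodes occludin, a tetraspan protein of the strands, and read 9.31 on the miR-95 array against 9.60 on the control array. Its difference of -0.325 is at the 0.322 limit and ranks 349th from the lowest detected gene. Under the alternatives it ranged from -0.325 to -0.287, so it kept its direction while its call at 0.322 did not hold throughout. Its relatives with the same membrane domain did not share the difference. MARVELD2, tricellulin, which closes the corners where cells meet in threes, read 8.67 on the miR-95 array, against 8.62 on the control array, a difference of 0.015. MARVELD1 read 9.72 and 9.61 in the same order (difference 0.075), and the dim MARVELD3 was at 0.005. TJP1, the scaffold ZO-1, read 11.18 on the miR-95 array against 11.08 on the control array (difference 0.065). TJP3, the scaffold ZO-3, read 7.45 against 7.26 and lay just below both medians (difference 0.155). The dim junctional adhesion molecules JAM3 and JAM2, immunoglobulin-type proteins, were at 0.305 and -0.215. CGN, the cytoplasmic linker cingulin, was at -0.135 and its paralog CGNL1 at 0.055, both dim. Of the 4 detected proteins of this class 1 was negative and 3 positive, with a median of 0.04.

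Because CLDN1 and OCLN had the lowest differences of the detected members, their promoters are shown beside that of CLDN3, which had a positive difference. Each is the 250 bases before the gene's start in RefSeq, GRCh38.p14, read on the gene's own strand. They lie at chr3:190322447-190322696 on the minus strand for CLDN1, chr5:69492297-69492546 on the plus strand for OCLN and chr7:73770271-73770520 on the minus strand for CLDN3. Capitals mark CAGGTG or CACCTG, the E-box bound by factors of the Snail and ZEB families, and GGGCGG or CCGCCC, the GC box bound by Sp1. Both strands were searched, and no match of one motif overlapped the other in these sequences.
CLDN1: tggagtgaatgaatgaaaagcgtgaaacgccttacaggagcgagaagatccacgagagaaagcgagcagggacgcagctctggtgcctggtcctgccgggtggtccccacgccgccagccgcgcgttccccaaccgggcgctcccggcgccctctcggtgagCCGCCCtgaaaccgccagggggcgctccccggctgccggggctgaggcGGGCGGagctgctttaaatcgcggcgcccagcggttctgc
OCLN: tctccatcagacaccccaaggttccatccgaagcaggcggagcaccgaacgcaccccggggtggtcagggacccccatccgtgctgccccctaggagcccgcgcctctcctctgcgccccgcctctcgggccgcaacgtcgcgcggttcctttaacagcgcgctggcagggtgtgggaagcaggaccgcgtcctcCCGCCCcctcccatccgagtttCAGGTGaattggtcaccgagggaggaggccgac
CLDN3: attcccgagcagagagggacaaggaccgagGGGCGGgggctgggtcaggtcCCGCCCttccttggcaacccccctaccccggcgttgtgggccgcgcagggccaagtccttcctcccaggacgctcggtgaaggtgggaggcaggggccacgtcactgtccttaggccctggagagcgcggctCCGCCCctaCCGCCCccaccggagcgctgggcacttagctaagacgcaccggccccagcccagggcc
OCLN held 1 such E-box, 33 to 28 bases before its start, while CLDN1 and CLDN3 held 0 in this window. GC boxes numbered 2 in CLDN1, 1 in OCLN and 4 in CLDN3. The E-box was in 17.5% of all 27305 windows of this length and in 15 of the 61 members with a window (24.6%), including 2 of 19 claudins (10.5%). Of the 5846 windows of detected genes 14.8% held the E-box, as did 5 of the 22 detected members with a window (22.7%). The GC box was in 42.3% of all windows, in 34 of the 61 members (55.7%) and in 7 of 19 claudins (36.8%). Of the windows of detected genes 70.8% held the GC box, as did 18 of those 22 members (81.8%). These matches describe letters in a window and carry no information on binding. The other members with the E-box in this window included DSC2, DSG2, PVR and TJP1 of the detected ones, whose differences lay from -0.105 to 0.205.

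Of the 15 desmosomal genes 9 were detected, beside 7081 of the 13864 named genes. The differences of these 9 lay from -0.115 to 0.205. The desmosomal cadherin DSC2, desmocollin 2, read 11.12 on the miR-95 array against 10.88 on the control array, a difference of 0.205. DSC3, desmocollin 3, read 10.67 against 10.72 on the control array (difference -0.085), and DSG2, desmoglein 2, read 10.39 against 10.46 (difference -0.105). JUP encodes plakoglobin, the catenin that serves both desmosomes and adherens junctions, and it read 9.64 on the miR-95 array against 9.44 on the control array (difference 0.165). The plakophilins, armadillo proteins of the plaque, lay on both sides of 0, with PKP4 at -0.115, PKP1 at -0.105, PKP2 at -0.055 and PKP3 at 0.115. EVPL, the plakin envoplakin, was at 0.075. Of the 9 detected members of this class 5 were negative and 4 positive, and the median was -0.055. Of the 9, 0 passed 0.322, where 8.46% of detected genes did, and 9 genes are too few to tell these apart.

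The other 6 desmosomal genes were dim. DSP, desmoplakin, which ties desmosomes to keratin filaments, read 6.38 on the miR-95 array, against 6.34 on the control array (difference 0.005). PPL, the plakin periplakin, read 7.17 against 6.91 (difference 0.225). DSG1, the desmoglein of the upper epidermis, read 3.28 on the miR-95 array against 3.76 on the control array, a difference of -0.515 between very low values. DSG4 and DSG3, desmogleins of hair and skin, were at -0.275 and -0.245, and DSC1, an epidermal desmocollin, was at 0.255. DSG1 is the only dim desmosomal gene past 0.322, a limit passed by 7.3% of all dim genes in that direction.

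The detected nectins and polarity proteins lay between -0.195 and 0.225. Nectins are immunoglobulin-type adhesion molecules that help to start adherens junctions. NECTIN2 read 9.0 on the miR-95 array against 9.05 on the control array (difference -0.085), and NECTIN3 read 9.30 against 9.24 (difference 0.025). PVR, the poliovirus receptor and a nectin-like partner of NECTIN3, read 10.59 against 10.52 (difference 0.035). The dim NECTIN4 and NECTIN1 were at -0.305 and -0.215. Among the polarity proteins, the PAR6 scaffolds PARD6G and PARD6B were the highest. PARD6G read 9.15 on the miR-95 array against 8.89 on the control array (difference 0.225), and PARD6B read 9.79 against 9.59 (difference 0.165). Their paralog PARD6A was at -0.085. PARD3, the PAR3 scaffold that binds PAR6, read 10.67 on the miR-95 array, against 10.76 on the control array (difference -0.125). LLGL2, a basolateral determinant that opposes the PAR complex, read 8.49 against 8.65 (difference -0.195), and LLGL1 was at -0.095. Of the 6 detected polarity genes 4 were negative and 2 positive, with a median of -0.09. The dim polarity genes were the apical Crumbs proteins CRB1, CRB2 and CRB3, and PARD3B, and they ranged from -0.095 to 0.035.

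EPCAM, the epithelial cell adhesion molecule, read 8.66 on the miR-95 array against 8.82 on the control array, a difference of -0.195. The only detected protocadherin was PCDH18, a member of the non-clustered protocadherins, which read 8.47 against 8.73. Its difference of -0.295 was the third lowest of the detected members, short of 0.322. The other 12 protocadherins were dim, from -0.185 for PCDH11X to 0.275 for PCDH7 and PCDH19. PCDH11X and PCDH11Y are near-identical in sequence, so their signals may be shared. PCDH17 was the member with more than 1 probe set, and its 2 probe sets gave 0.005 and 0.105.

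The cadherins proper were nearly out of view. CDH23, the tip-link cadherin of hair cells, and CDH26 were the 2 measured, both dim, at 0.045 and 0.205. No probe set used here named the classical cadherins CDH1 or CDH2, an alpha- or delta-catenin, or a connexin of the GJA, GJB or GJC groups, so adherens junction cores and gap junctions are not described. The symbol rule also took in PVRIG, an immune receptor, and PARD6G-AS1, an antisense RNA, by their letters alone. Both were dim, at -0.275 and -0.065.

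**Figure D3:**
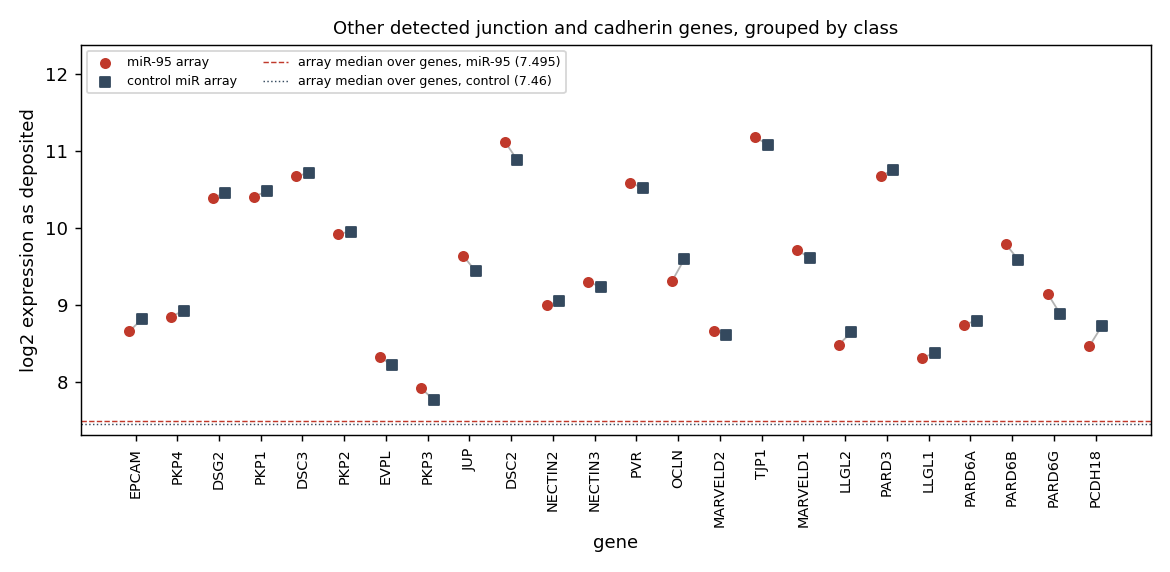
Log2 expression as deposited for the 24 detected members that are not claudins, grouped by class, with the miR-95 array (circle) left of the control array (square), 1 array per group. OCLN (-0.325 after centring) and PCDH18 (-0.295) have the widest gaps with the miR-95 array lower, and PARD6G (0.225) and DSC2 (0.205) with it higher.

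Several members lie side by side in the genome, and their differences are set side by side. By RefSeq gene order, 19 members formed 7 runs with no other protein-coding gene between them. Runs differ in length, and the share of runs with both signs over all genes was not taken, so signs are counted by pair. The members in these runs gave 12 adjacent pairs, of which 7 had opposite signs (58.3%), beside 46% of all 7808 adjacent pairs of measured genes. With both genes detected, 3 of 3 member pairs had opposite signs, beside 43.5% of 2802 such pairs of all genes. The member pairs are few, so nothing particular to the members is read from the signs. The runs of CLDN9 and CLDN6, CLDN17 and CLDN8, and CLDN22 and CLDN24 hold dim genes only. OCLN (-0.325) neighbours MARVELD2 (0.015). CLDN1 (-0.595) overlaps CLDN16 (-0.005) in gene span, and CLDN3 (0.245) adjoins CLDN4 (-0.165). In the run of 7 desmosomal cadherins the 3 desmocollins were at -0.085, 0.205 and 0.255 and the 4 desmogleins were all negative, from -0.515 to -0.105. Only DSC2, DSC3 and DSG2 of that run were detected. The sign of CLDN16 changed with the centring, and that of CLDN17 (0.075) turned to -0.007 with an offset of 50 on the linear scale, where its run with CLDN8 held 1 sign. Gene span had a Spearman's rho of -0.214 with the difference over the 31 detected members, 0.053 over all 82 members and -0.238 over all 7081 detected genes. Genes are not independent replicates, and the value is a description.

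**Figure D4:**
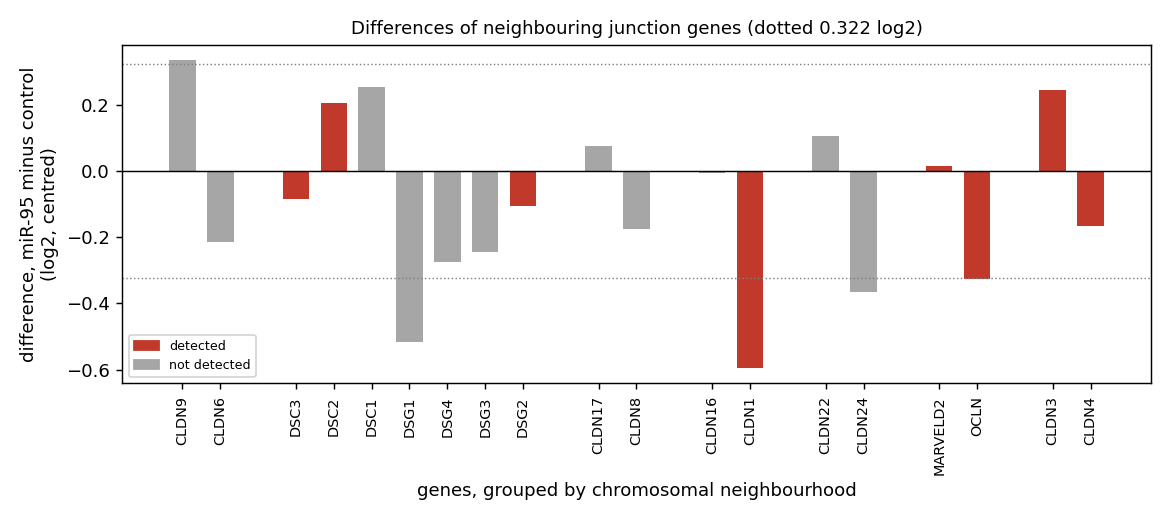
Difference (miR-95 minus control, log2 after centring) on the vertical axis for the 19 members that adjoin another member, 1 bar per gene, with each run set apart. Red bars are detected genes and grey bars are dim ones. Of the 12 adjacent pairs 7 have opposite signs (58.3%), beside 46% of all adjacent pairs of measured genes. CLDN1 and OCLN each have a neighbour within 0.015 of 0.

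Scaffolds and linkers of junctions that the symbol rule did not take in were set beside the members. Of 35 listed, 17 were measured and 14 detected, of which 2 were lower by at least 0.322 and 0 higher, against 5.38% and 3.08% of detected genes. The lower genes were PATJ, a PDZ scaffold that joins Crumbs to tight junctions, and AMOTL2, an angiomotin that binds tight junctions and YAP. PATJ read 8.51 on the miR-95 array against 8.86 on the control array (difference -0.385), and AMOTL2 read 8.01 against 8.32 (difference -0.345). Across the processing alternatives PATJ lay from -0.385 to -0.343. AMOTL2 lay from -0.345 to -0.295, so its call at 0.322 did not hold throughout. LIMA1, an actin linker of adherens junctions, and LIN7C, a partner of CASK, were each at -0.275, and MPDZ, a paralog of PATJ, was at -0.245. ZYX, the actin-associated protein zyxin, was highest at 0.225, followed by the polarity protein SCRIB at 0.115. The list median of -0.14 was below the -0.035 of all detected genes, with 9 negative and 5 positive. Over all 17 measured genes, and with detection at the 25th or the 75th percentile, it was -0.055.

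Of 21 transcription factors and splicing regulators of epithelial identity, 19 were measured and 8 detected, and 1 was past 0.322, where 8.46% of detected genes were. SNAI1, the Snail repressor of epithelial genes, read 7.66 on the miR-95 array against 7.10 on the control array, a difference of 0.525 from a control value below that array's median. Its paralog SNAI2, Slug, read 11.34 against 11.44 (difference -0.135), and ZEB1, another repressor, read 8.49 against 8.58 (difference -0.125). ESRP2, a splicing regulator of epithelia, was at 0.225 and KLF5, an epithelial transcription factor, at -0.225. The detected factors were 4 negative and 4 positive, with a median of -0.03. SNAI1 counted as detected only through the miR-95 array, and with detection on the mean of both arrays it dropped out, leaving 4 negative and 3 positive and a median of -0.065. OVOL1, an epithelial factor that was dim on both arrays and was picked out after its value was known, read 5.76 on the miR-95 array against 6.43 on the control array (difference -0.705).

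**Figure D5:**
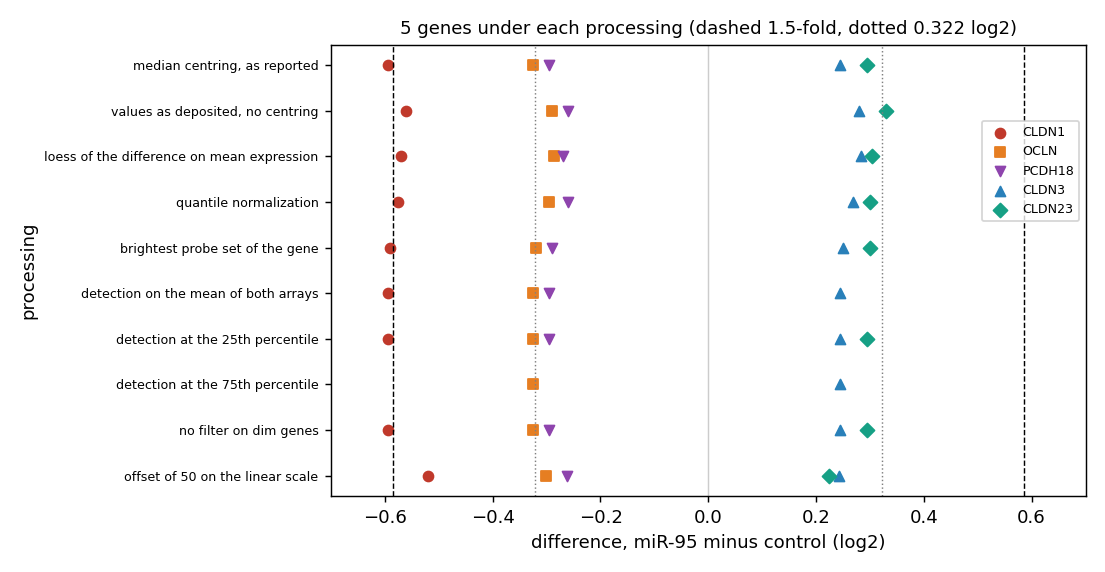
Difference (miR-95 minus control, log2) on the horizontal axis for 5 members under each processing tried, 1 row per processing. CLDN1 runs from -0.595 to -0.52 and OCLN from -0.325 to -0.287, while CLDN3 runs from 0.243 to 0.284. A missing point means the gene was not detected under that setting.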

How the data were processed

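Log2 expression values were read from the deposited series table, which holds 1 column for each of the 2 arrays. The log2 scale was inferred from the values. Affymetrix Expression Console 1.2 was used by the authors, per the submitters' processing notes, while summarisation, background correction, between-array scaling and genome build are not stated there. Such scaling would hide a shift of all transcripts together.

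The platform table named 14088 probe sets with 1 gene symbol each, and the 9553 others were left out. All 82 members matched RefSeq (GRCh38.p14), used for names, gene order, gene span and the printed sequences. Probe sets of a gene were averaged and each array was centred on its median over genes, a relative shift of 0.035. With 1 array per group there was no test, and the number of arrays limits the precision. Python 3.11.15, numpy 2.4.6, pandas 2.3.3, scipy 1.17.1 and statsmodels 0.14.6 were used, and the steps were checked on simulated data.

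Named with values were every claudin, detected members past a log2 difference of 0.322, the 2 detected members of each class with the largest difference each way, dim members past 1.5-fold and fixed genes such as OCLN, TJP1 and EPCAM. From the pathway lists, detected genes past 0.322 and the 2 largest each way were named. The other members with values are given so that each member is accounted for, and were not picked by the rule. The members, lists, motifs and neighbour comparison were chosen with earlier results of these data known. Alternatives covered the centring, the probe set summary, the detection limit and an offset.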

Additional observations from a re-analysis of the deposited data

How the results depend on the processing

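No paired analysis was possible because each group has 1 array, so no replicate could be left out either. The count of detected members past 1.5-fold, 1 (CLDN1) as reported, was 0 without centring, after loess, after quantile normalization, with detection at the 75th percentile and with an offset of 50 on the linear scale. CLDN1 itself was then at 1.47, 1.49, 1.49 and 1.43-fold lower without centring, after loess, after quantile normalization and with the offset, and below the 75th percentile limit on both arrays. The count past 0.322 log2, 2 as reported, was 1 after loess, after quantile normalization, with the brightest probe set, with detection at the 75th percentile and with the offset, 4 with detection at the 25th percentile and 6 with no filter. Without centring it stayed at 2, with CLDN23 in place of OCLN. Among all detected genes at 1.5-fold, centring gave 28 higher and 61 lower, against 37 and 45 without it. The median of the detected members ranged from -0.055 to 0.03 across the alternatives, and its sign is not settled. Dim CLDN11 and CLDN24 shrank to -0.288 and -0.154 with the offset. The 2 arrays hold no information on variation between cultures, and signals near or below the array median limit 51 of the 82 members.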

Other observations

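Cadherin superfamily genes that the symbol rule did not take in were also set beside the members. Of 36 listed, counting the clustered protocadherins with a probe set, 32 were measured and 6 detected. Of the detected genes 0 passed a log2 difference of 0.322 either way (background 8.46%), and 6 genes are too few to tell this from the background. FAT1, a giant atypical cadherin, read 9.77 on the miR-95 array, against 9.76 on the control array, and the calsyntenin CLSTN1 read 9.86 and 9.85 in the same order. PCDHB14, a clustered protocadherin, was highest at 0.185, and FAT1 and CLSTN1 were each at -0.025. PCDHB2, of the same cluster, was lowest at -0.105. The PCDHB genes, PCDHB14 among them, share high sequence similarity, so their signals may be shared. CLSTN3, another calsyntenin, was at 0.115. The dim PCDHB7 and PCDHB1 were past 0.322, at -0.355 and 0.325.

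Of 7 listed connexins and pannexins outside the rule, 3 pannexins were measured, and 2 were detected. PANX1, which forms large-pore membrane channels, read 10.86 on the miR-95 array against 10.79 on the control array (difference 0.035). PANX2 read 8.81 against 8.60 (difference 0.175), and PANX3 was dim at -0.255.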
